A study of Rattus norvegicus with 8 samples.

Results

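This account covers 34 genes of sterol and fatty acid synthesis in the rat kidney: 24 genes of the sterol branch, which is governed mainly by the transcription factor SREBP2, and 10 of the fatty acid branch, governed mainly by SREBP1. They were chosen by name, with earlier results of these data known. All 34 had at least 1 probe, among 14400 genes with a symbol on the array. The 8 samples were right kidneys of male F344/NSlc rats aged 10 weeks, an inbred strain with no genetic change. Of these, 4 came from nephrectomized rats, whose other kidney had been removed, and 4 from sham rats, which had the operation without the removal. The series text gives 2 days from operation to sampling, but the source labels give 2 days for the nephrectomized rats and 1 day for the sham rats, so the groups may also differ in sampling time. Whole kidney RNA was used, so a change in the share of a cell type and a change of RNA per cell cannot be told apart.

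Cells sense sterol in the membrane of the endoplasmic reticulum. When sterol is low, SCAP carries the SREBP precursors to the Golgi, where proteases release the active factor, and INSIG proteins hold SCAP back when sterol is high. SREBP2 then raises the enzymes that build cholesterol from acetyl-CoA through mevalonate, farnesyl diphosphate, squalene and lanosterol, and SREBP1 raises enzymes that build, lengthen and desaturate fatty acids. Kidney cells both make cholesterol and take it up.

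A 1-colour Agilent array was run for each rat. The values below are levels on a log2 scale relative to the array's own 75th percentile, so 0 is the brightness that 75% of the gene probes stay under. They compare rats for 1 gene, not genes with each other. The share of gene probes well above background ran from 54.8% in sham rat 1 to 65.5% in nephrectomized rat 4, and sham rat 1 lay below the other 7 arrays (60.5% to 65.5%). The 2 slides each held 2 nephrectomized and 2 sham rats (rats 1 and 2 on slide 1, rats 3 and 4 on slide 2). Kidney markers were present: 6 of 7 for the proximal tubule and all 4 each for the loop of Henle with the distal tubule, the collecting duct, podocytes and endothelium were well above background on all 8 arrays. None of these markers passed the test between groups. Precision is limited by having 4 rats in a group.

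Sterol genes were mostly higher after nephrectomy, and fatty acid genes were mixed. Of the 24 sterol genes, 9 rose and 1 fell (limma, Benjamini-Hochberg adjusted p under 0.05 over all 19865 genes tested), against 2.57% of all genes higher and 1.02% lower (3.59% in either direction). Of the 10 fatty acid genes, 8 were bright enough to test, and 1 rose and none fell. The median log2 fold change was 0.42 over the sterol genes and 0.11 over the 8 fatty acid genes, beside -0.0004 over all genes tested. The log2 fold change was positive for 22 of the 24 sterol genes and 5 of the 8 fatty acid genes, as it was for 49.9% of all genes.

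**Figure D1:**
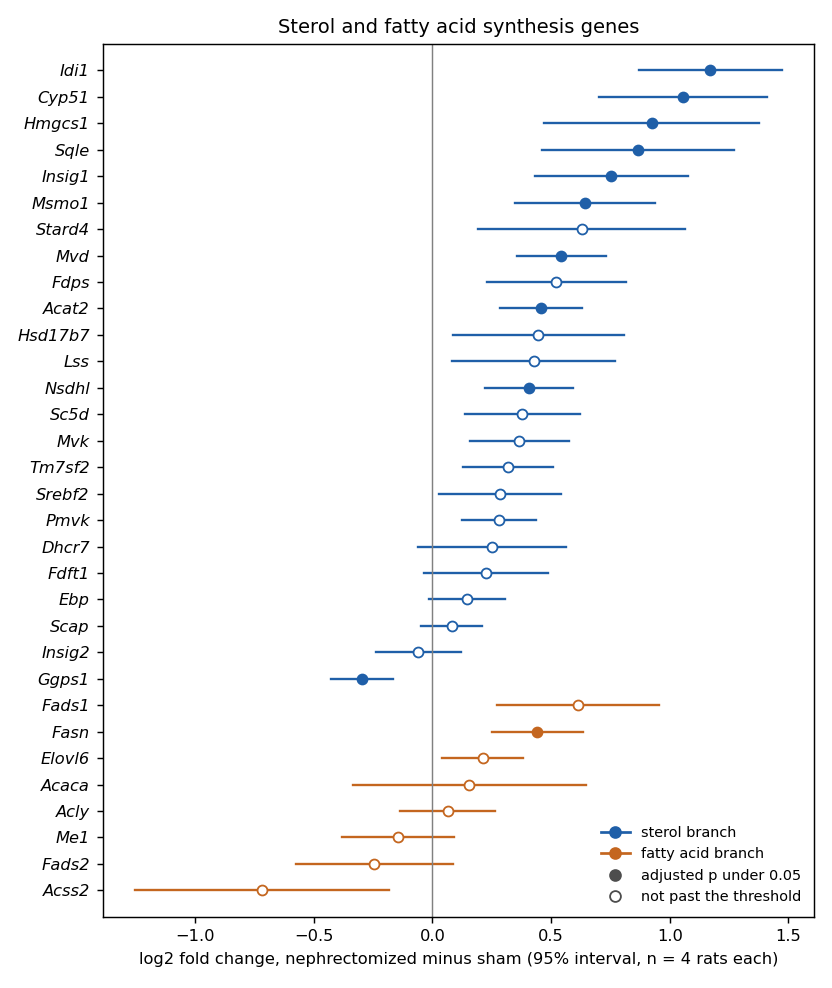
Log2 fold change (horizontal axis, nephrectomized minus sham) of the 32 members tested, 1 per row, with the 95% interval from limma and n = 4 rats in each group. Filled points passed an adjusted p of 0.05: they are 9 sterol genes and Fasn above 0, and Ggps1 below 0.

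Because most sterol genes lay higher after nephrectomy, member promoters were read for letters linked to SREBP and its partners. RefSeq promoters of the GRCr8 build, 250 bases before to 50 after the start, were at hand for 27 of the 34 members, 20 of them sterol genes. On either strand, CCAAT, the box bound by NF-Y, was in 16 of the 20 sterol promoters (80%) and 4 of the 7 fatty acid promoters, in 37.5% of all 33469 promoters and in 37.9% of those of tested genes. GGGCGG, a box bound by SP1, was also in 16 of 20 and in 5 of 7, in 33.1% of all promoters and in 60.9% of those of tested genes. TCACNCCAC, one form of the sterol regulatory element, was in 0 of 27 member promoters, in 1.12% of all and in 1.08% of those of tested genes. CACGTG, an E-box, was in 4 of 27, in 6.42% of all and in 9.22% of those of tested genes. These are matches of letters, not sites shown to be bound. Some of these windows lie inside the span of their gene rather than ahead of it. That of Insig2, counted among the 16 with CCAAT, runs along chr13:35040049-35040348, in a gene that spans 35025160 to 35052937. Of the promoters shown, that of Idi1 holds CCAAT 2 times and no GGGCGG, and that of Mvd holds both, 2 times each. That of Cyp51 holds GGGCGG 2 times and no CCAAT. That of Ggps1, the member that fell, holds CCAAT 1 time and, like that of Idi1, which rose, no GGGCGG. The promoters run along chr17:66547475-66547774 on the minus strand for Idi1, chr4:30991443-30991742 on the plus strand for Cyp51, chr19:67414925-67415224 on the minus strand for Mvd and chr17:55958500-55958799 on the plus strand for Ggps1. Capitals mark CCAAT and GGGCGG on either strand (ATTGG and CCGCCC where the match is on the other strand), and no match overlaps another in these 4.
Idi1: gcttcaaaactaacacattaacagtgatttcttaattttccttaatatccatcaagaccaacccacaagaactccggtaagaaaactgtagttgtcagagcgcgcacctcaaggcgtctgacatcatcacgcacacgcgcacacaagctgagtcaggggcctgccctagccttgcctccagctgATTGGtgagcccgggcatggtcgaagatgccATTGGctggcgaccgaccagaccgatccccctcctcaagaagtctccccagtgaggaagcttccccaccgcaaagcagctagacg
Cyp51: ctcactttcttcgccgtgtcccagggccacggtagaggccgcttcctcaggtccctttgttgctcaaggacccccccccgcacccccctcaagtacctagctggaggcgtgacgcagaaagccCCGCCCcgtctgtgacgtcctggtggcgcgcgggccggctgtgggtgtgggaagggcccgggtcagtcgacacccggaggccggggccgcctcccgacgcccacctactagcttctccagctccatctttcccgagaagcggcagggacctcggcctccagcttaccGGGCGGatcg
Mvd: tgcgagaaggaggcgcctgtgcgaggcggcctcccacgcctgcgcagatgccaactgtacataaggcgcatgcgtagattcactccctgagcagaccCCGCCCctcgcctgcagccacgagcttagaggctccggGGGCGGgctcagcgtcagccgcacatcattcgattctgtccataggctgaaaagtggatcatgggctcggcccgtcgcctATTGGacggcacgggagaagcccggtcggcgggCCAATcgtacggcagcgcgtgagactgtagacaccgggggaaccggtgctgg
Ggps1: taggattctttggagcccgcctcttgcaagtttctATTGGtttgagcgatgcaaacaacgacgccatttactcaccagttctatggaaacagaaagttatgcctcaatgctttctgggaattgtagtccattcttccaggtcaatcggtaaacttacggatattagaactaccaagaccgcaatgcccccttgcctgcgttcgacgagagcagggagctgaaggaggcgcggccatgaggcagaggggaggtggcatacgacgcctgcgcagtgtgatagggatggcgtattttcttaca

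The early steps of the pathway make mevalonate and then isoprene units. Hmgcs1, the cytosolic HMG-CoA synthase, had log2 levels of 1.48, 1.47, 1.86 and 1.07 in nephrectomized rats 1 to 4, against 0.24, 0.30, 0.78 and 0.87 in sham rats 1 to 4. It was 1.90-fold higher (95% interval 1.39 to 2.59, adjusted p = 0.0424 by limma). All nephrectomized rats lay above all sham rats, but both sham rats of slide 2 lay close to nephrectomized rat 4, and slide 1 gave a log2 difference of 1.20 where slide 2 gave 0.64. These values are of the brighter probe. A second, dimmer probe of Hmgcs1 gave a log2 fold change of 0.87 (SE 0.11) and passed too (adjusted p = 0.0042 by limma over all probes). Acat2, the cytosolic acetoacetyl-CoA thiolase that supplies this step, had 4.00, 3.94, 4.25 and 4.05 in nephrectomized rats and 3.63, 3.57, 3.64 and 3.57 in sham rats. It was 1.37-fold higher (1.22 to 1.55, adjusted p = 0.0156), with a gap between groups larger than the whole sham range.

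Mevalonate is phosphorylated by mevalonate kinase (Mvk) and phosphomevalonate kinase (Pmvk) and decarboxylated by Mvd. Mvd had 2.16, 2.12, 2.12 and 2.24 in nephrectomized rats, against 1.84, 1.56, 1.55 and 1.52 in sham rats, and was 1.46-fold higher (1.28 to 1.66, adjusted p = 0.00988). Here the nephrectomized rats were the tighter group (SD 0.06 against 0.15, n = 4 each). Mvk had -0.29, -0.45, -0.28 and -0.27 in nephrectomized rats and -0.50, -0.72, -0.89 and -0.64 in sham rats. Pmvk had 1.09, 1.02, 0.94 and 0.95 in nephrectomized rats and 0.85, 0.67, 0.70 and 0.65 in sham rats. Neither kinase's groups overlapped, yet both missed the threshold (log2 fold change 0.37, adjusted p = 0.072, and 0.28, adjusted p = 0.065, by limma).

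Idi1, the isomerase that makes dimethylallyl diphosphate, had the widest gap between groups among the members. Its log2 levels were 2.81, 2.66, 3.30 and 2.93 in nephrectomized rats, against 1.61, 1.86, 1.78 and 1.77 in sham rats. The lowest nephrectomized rat lay 0.80 above the highest sham rat, and the gene was 2.25-fold higher (1.83 to 2.78, adjusted p = 0.00252). Its second probe gave a log2 fold change of 1.08, beside 1.17 for the brighter one.

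Fdps, which joins these units into farnesyl diphosphate, had 3.51, 3.52, 4.08 and 3.71 in nephrectomized rats and 3.17, 3.07, 3.22 and 3.28 in sham rats. It did not pass (log2 fold change 0.52, SE 0.13, adjusted p = 0.0697), although the groups did not overlap and a second probe gave 0.55. With slide as a block it passed, as did Pmvk, so that 11 sterol genes rose in that fit (2.84% of all genes higher).

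At farnesyl diphosphate the pathway divides, and Ggps1, the only member on the other side of that fork, went the other way. Ggps1 makes geranylgeranyl diphosphate, which is attached to small GTPases and is not a sterol precursor. It had -1.08, -1.14, -1.09 and -1.07 in nephrectomized rats, against -0.90, -0.73, -0.79 and -0.79 in sham rats. All nephrectomized rats lay below all sham rats, and the level fell by 0.30 on the log2 scale (95% interval -0.43 to -0.16, adjusted p = 0.03). The difference was -0.30 on each slide. Its promoter is printed with those of Idi1, Cyp51 and Mvd, which rose. With normexp background correction, with dim probes kept or with the replicate number as a block, Ggps1 kept this direction but no longer passed. Its call held in 1 of the 8 omissions of a rat.

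On the sterol side of the fork, squalene synthase (Fdft1) and lanosterol synthase (Lss) did not pass, whereas the enzyme between them rose. Sqle, squalene epoxidase, had 1.50, 1.29, 2.11 and 1.43 in nephrectomized rats and 0.45, 0.84, 0.83 and 0.75 in sham rats. It was 1.82-fold higher (1.38 to 2.41, adjusted p = 0.0352). For Fdft1 the range was 0.10 to 0.56 in nephrectomized rats and -0.06 to 0.26 in sham rats, and for Lss 0.42 to 0.77 and -0.15 to 0.51. Both groups of each gene overlapped, and the 95% intervals of their log2 fold changes ran from -0.03 to 0.49 for Fdft1 and from 0.08 to 0.77 for Lss.

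After lanosterol, 3 demethylation enzymes rose. Cyp51, the lanosterol demethylase, had 1.05, 1.01, 1.71 and 1.35 in nephrectomized rats, against 0.04, 0.36, 0.26 and 0.26 in sham rats. It was 2.08-fold higher (1.62 to 2.66, adjusted p = 0.00861), with 0.65 between the lowest nephrectomized and the highest sham rat. Msmo1, the methylsterol oxidase that follows, had 5.02, 4.98, 5.55 and 5.20 in nephrectomized rats and 4.37, 4.63, 4.61 and 4.58 in sham rats, a 1.56-fold rise (1.27 to 1.91, adjusted p = 0.0329). Nsdhl, which acts with Msmo1 to remove the methyl groups at carbon 4, had 0.38, 0.37, 0.71 and 0.49 in nephrectomized rats and 0.07, 0.06, 0.09 and 0.12 in sham rats. Its sham rats were the tightest of the called sterol genes (SD 0.03), and it was 1.33-fold higher (1.17 to 1.51, adjusted p = 0.0329).

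The remaining enzymes of this stretch did not pass. Log2 fold changes were 0.45 for Hsd17b7, which completes the carbon 4 demethylation, 0.38 for Sc5d, a sterol desaturase, 0.32 for Tm7sf2, a sterol reductase, 0.25 for Dhcr7, the last reductase of one route to cholesterol, and 0.15 for Ebp, a sterol isomerase. The groups did not overlap in Hsd17b7, Sc5d and Tm7sf2 and did in Dhcr7 and Ebp. A second, dimmer probe of Hsd17b7 gave 0.69 and passed (adjusted p = 0.0393 over all probes), so its 2 probes differ in the call. Of the 14 sterol genes that did not pass, 9 had an unadjusted p under 0.05, so that 18 of 24 were higher at that threshold, against 10.1% of all genes.

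**Figure D2:**
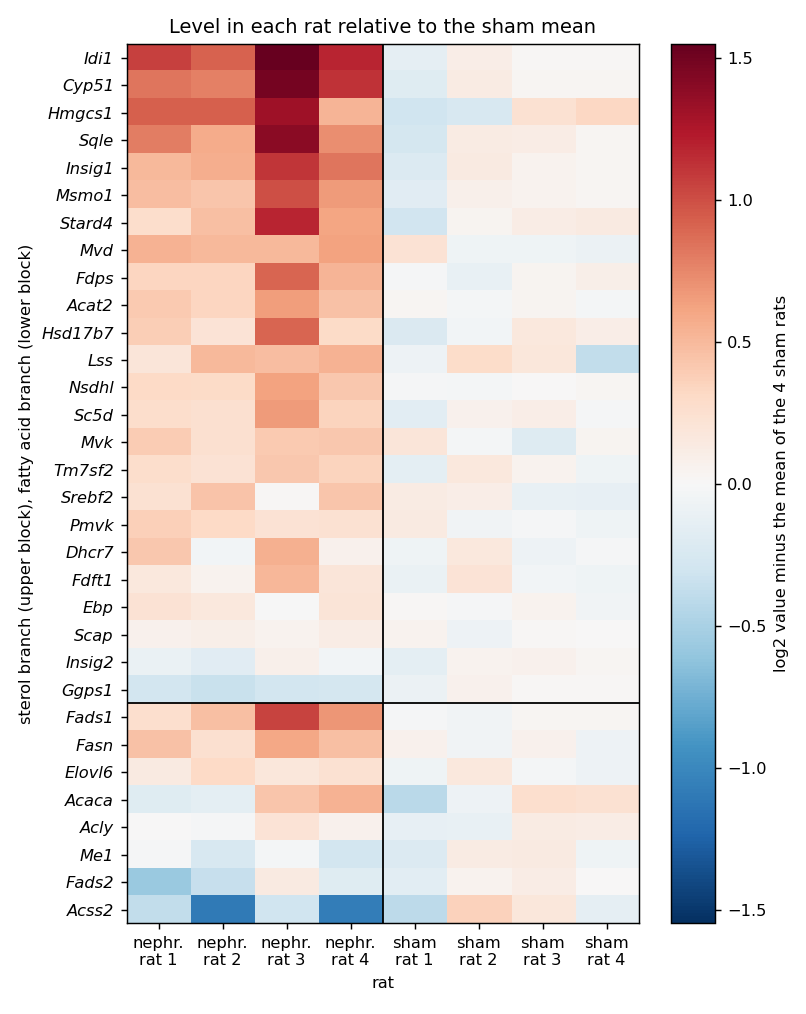
Level of each of the 32 tested members (rows) in each of the 8 rats (columns), as the log2 value minus the mean of the 4 sham rats, red where higher and blue where lower. Nephrectomized rat 3 is the reddest column of the sterol block and was the highest nephrectomized rat for 16 of 24 sterol genes, while Ggps1 is blue in all 4 nephrectomized rats.

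Among the regulators, the gene for one sterol sensor rose and its paralog did not. Insig1, itself induced by SREBP and a brake on it, had 3.92, 3.98, 4.52 and 4.24 in nephrectomized rats and 3.20, 3.55, 3.46 and 3.44 in sham rats. It was 1.69-fold higher (1.35 to 2.11, adjusted p = 0.0257), and its 4 probes gave log2 fold changes from 0.74 to 0.78. Insig2 had 0.04, -0.04, 0.22 and 0.10 in nephrectomized rats and -0.01, 0.19, 0.21 and 0.17 in sham rats, with a log2 fold change of -0.06 (95% interval -0.24 to 0.12). The groups overlapped, and the interval of Insig2 lay below that of Insig1 (0.43 to 1.07). The difference between the paralogs was not tested.

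Srebf2, which encodes SREBP2, had -1.43, -1.22, -1.64 and -1.24 in nephrectomized rats and -1.54, -1.56, -1.78 and -1.79 in sham rats. It did not pass (log2 fold change 0.28, 95% interval 0.03 to 0.54, adjusted p = 0.235), and nephrectomized rat 3, the highest rat for most sterol enzymes, was the lowest of its group here. Scap ranged from 3.09 to 3.16 in nephrectomized rats and from 2.96 to 3.10 in sham rats (log2 fold change 0.08, 95% interval -0.05 to 0.21). Stard4, a cytosolic carrier of cholesterol, had -2.51, -2.31, -1.60 and -2.16 in nephrectomized rats, against -3.06, -2.73, -2.66 and -2.63 in sham rats. Its log2 fold change was 0.63 without passing (adjusted p = 0.126), with the groups apart but rat 3 spreading the nephrectomized group (SD 0.39, n = 4).

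Groups without overlap are a laxer measure than a call, and were more frequent than calls both among sterol genes and over all genes (2.57% called higher). For 16 of the 24, every nephrectomized rat exceeded every sham rat, against 7.56% of all genes tested, and for 1 (Ggps1) the reverse held, against 5.07%. The 16 are the 9 called genes and 7 that did not pass. All 24 were well above background on all 8 arrays, so none of them entered the test through 1 group alone.

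The number of calls depended on single rats more than the sizes did. The 9 sterol rises became 4 without nephrectomized rat 4, 3 without sham rat 2, 4 without sham rat 3, 3 without sham rat 4 and 6 without sham rat 1, the array with the fewest probes above background. Calls over all genes, in either direction, moved too: in the same order they were 342, 396, 341, 427 and 720, against 714 with all rats. Over all 8 omissions the sterol median stayed between 0.36 and 0.46, the lower end being without nephrectomized rat 3, and the fatty acid median was 0.02 without sham rat 1. Idi1, Cyp51 and Mvd passed without any 1 rat (highest adjusted p = 0.0133, 0.0367 and 0.0419). Acat2 passed in 5 of the 8 omissions, Insig1, Msmo1 and Nsdhl in 3, Sqle in 2, and Hmgcs1 and Ggps1 in 1 (adjusted p up to 0.12). Without the filter on dim probes, which adds genes to the adjustment, Idi1 and Cyp51 alone among the members passed. Calls over all genes, in either direction, also fell in that fit, to 282 from 714.

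Both slides gave the same sign for every tested member. Slide 1 gave a sterol median of 0.31 and slide 2 one of 0.50, with the value of slide 2 the higher one for 20 of the 24 sterol genes. The exceptions were Hmgcs1, Pmvk, Ebp and Scap. Within 1 slide, with 2 rats per group, limma called none of the members, with 14 higher at an unadjusted p under 0.05 on slide 1 and 19 on slide 2. Of all 19865 genes, 1632 on slide 1 and 2464 on slide 2 had such a p in either direction. Those that were higher were not counted apart, so the member counts have no like background here.

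**Figure D3:**
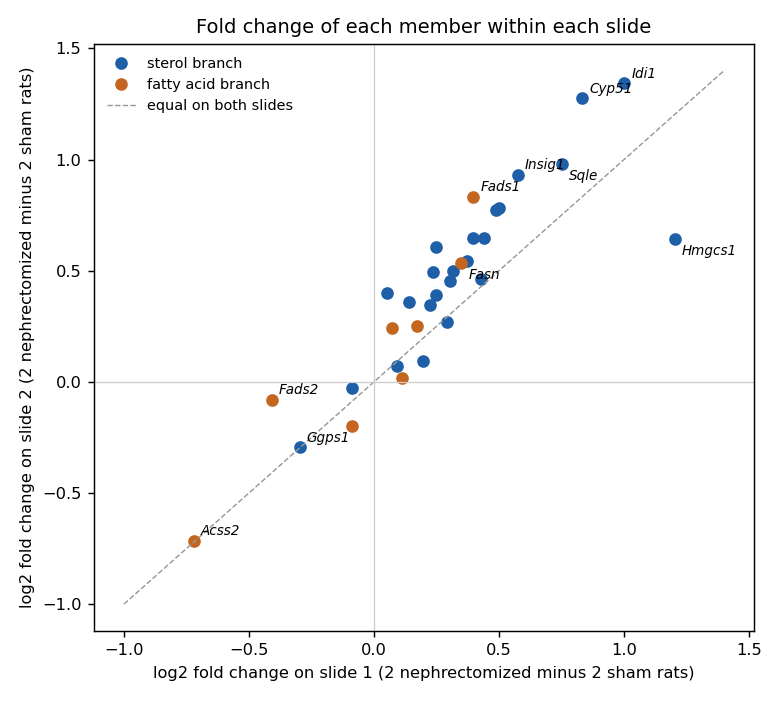
Log2 fold change of each tested member on slide 1 (horizontal axis) and on slide 2 (vertical axis), each from 2 nephrectomized minus 2 sham rats, with the dashed line marking equal values. All points lie at the upper right or lower left of the zero lines, Hmgcs1 is far to the right of the line (1.20 and 0.64), and Acss2 and Ggps1 lie on it.

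In the fatty acid branch the synthase itself rose. Fasn, which builds palmitate from malonyl-CoA, had 2.42, 2.22, 2.56 and 2.44 in nephrectomized rats and 2.03, 1.91, 2.04 and 1.89 in sham rats. It was 1.36-fold higher (1.19 to 1.55, adjusted p = 0.0269). A second probe gave a log2 fold change of 0.36, beside 0.44, and did not pass (adjusted p = 0.0882), and the call held in 3 of the 8 omissions of a rat.

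The enzymes that feed it did not pass. Acly, which makes cytosolic acetyl-CoA from citrate, ranged from 4.44 to 4.67 in nephrectomized rats and from 4.33 to 4.59 in sham rats (log2 fold change 0.06, 95% interval -0.14 to 0.26). Acaca, acetyl-CoA carboxylase, lay near background, was well above it in 3 of 4 sham rats, and had a wide interval (-0.34 to 0.65). Me1, the malic enzyme that supplies NADPH, had a log2 fold change of -0.14 (-0.38 to 0.09) on its brighter probe and -0.37 on the other.

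Acss2, which makes acetyl-CoA from acetate and is a known SREBP target, lay on the other side of 0 from most members. Its levels were 0.50, -0.22, 0.57 and -0.19 in nephrectomized rats and 0.48, 1.25, 1.06 and 0.74 in sham rats. The log2 fold change was -0.72 (95% interval -1.25 to -0.18), but the groups overlapped through sham rat 1, the spread was wide (SD 0.43 and 0.34, n = 4 each) and it did not pass (adjusted p = 0.152), except with array weights.

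The desaturases and elongases differed among themselves. Fads1, the delta-5 desaturase, had 1.87, 2.07, 2.65 and 2.29 in nephrectomized rats, against 1.59, 1.55, 1.64 and 1.64 in sham rats. The groups did not overlap, and its log2 fold change of 0.62 (95% interval 0.27 to 0.96) missed the threshold (adjusted p = 0.0667), which it passed with slide as a block. Fads2, the delta-6 desaturase of the same pathway, had -2.08, -1.86, -1.36 and -1.69 in nephrectomized rats and -1.67, -1.45, -1.39 and -1.50 in sham rats, with a log2 fold change of -0.24 (-0.58 to 0.09). The interval of Fads2 thus lay below that of Fads1, with no test of the difference between them. Elovl6, which lengthens palmitate, did not pass either (0.21 on the log2 scale, adjusted p = 0.178, and 0.01 on a second, dimmer probe). Scd, a delta-9 desaturase, was well above background on 0 of 8 arrays, and Elovl5, an elongase of polyunsaturated fatty acids, in 2 of 4 nephrectomized and 2 of 4 sham rats, so neither was tested.

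Branch means separated the groups for the sterol genes and not for the fatty acid genes. The mean over sterol genes, relative to the sham mean, was 0.38, 0.33, 0.65 and 0.44 in nephrectomized rats and -0.08, 0.04, 0.03 and 0.00 in sham rats. Over the 8 fatty acid genes it was -0.04, -0.11, 0.28 and 0.06 in nephrectomized rats and -0.17, 0.05, 0.11 and 0.00 in sham rats. The sterol mean of every nephrectomized rat thus lay above all sham rats, and the fatty acid means overlapped. The sterol mean exceeded the fatty acid mean by 0.37 to 0.44 in nephrectomized rats, against -0.08 to 0.09 in sham rats. These means are a description without a test, because the genes were picked with earlier results known.

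**Figure D4:**
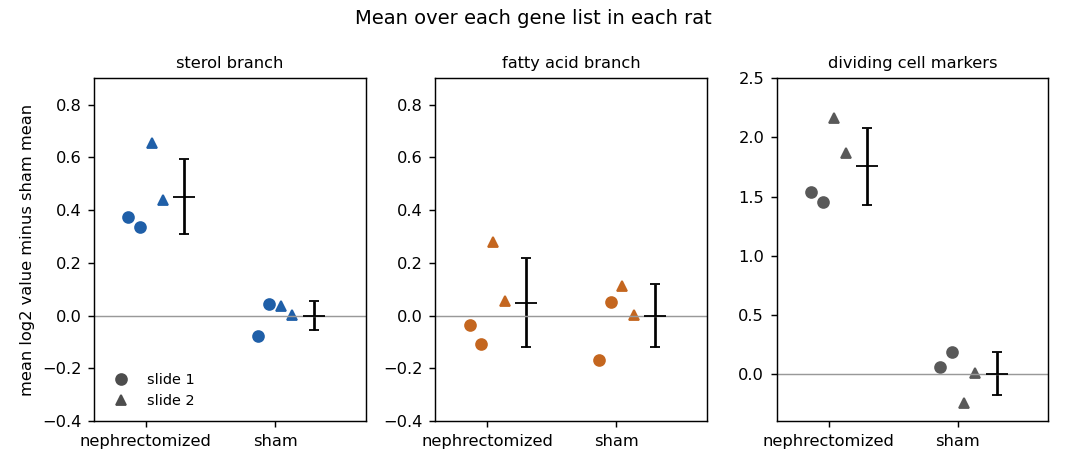
Mean log2 value relative to the sham mean (vertical axis) over the 24 sterol genes, the 8 tested fatty acid genes and 8 markers of dividing cells, 1 point per rat, with circles for slide 1 and triangles for slide 2, and the group mean with its SD beside the points. The vertical scale of the dividing cell panel differs from the other panels. Nephrectomized rat 3 is the highest point of each panel.

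Markers of dividing cells were also higher after nephrectomy. On that list 7 of 8 markers were well above background on all arrays, and all 7 rose, against 2.57% of all genes called higher. The other, Aurkb, was so in 4 of 4 nephrectomized rats and 1 of 4 sham rats and entered the test through the nephrectomized rats, where it was higher. The 8 markers' summed level was 20.7 to 35.4 times the array's 75th percentile in nephrectomized rats and 6.23 to 8.67 times in sham rats. Nephrectomized rat 3 had the highest mean of its group for the dividing cell markers (2.16), the sterol genes (0.65) and the fatty acid genes (0.28), and nephrectomized rat 2 the lowest for each (1.45, 0.33 and -0.11). On each list both nephrectomized rats of slide 2 lay above both of slide 1. This shared order therefore cannot be told apart from a difference between the slides. Sham rats did not keep one order: sham rat 3 was lowest for the dividing cell markers (-0.25) and sham rat 1 for the sterol genes (-0.08). The part of dividing cells in the sterol values was not tested.

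Of 5 adipocyte markers on the array, 3 (Adipoq, Cidec and Cfd) were well above background on all 8 arrays and Lep on none, and none of the 3 passed the test between groups. The summed level of the list was 0.987 to 1.43 in nephrectomized rats and 1.16 to 1.56 in sham rats. Of 5 adrenal cortex markers, Cyp11b1, Cyp11b2 and Cyp21a1 were well above background on no array. The summed level of that list was 0.164 to 0.214 in nephrectomized rats and 0.127 to 0.167 in sham rats. Its 1 measured gene, Cyp17a1, a steroid hydroxylase, was well above background in 4 of 4 nephrectomized and 3 of 4 sham rats, so it entered the test through the group where it was higher. The part of these tissues in the sterol values was not tested.

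Other genes of the sterol pathway, from a list of 26 of which 21 were measured, showed 3 rises and 1 fall, with a median log2 fold change near 0 (-0.0048). The rises were 14.3% of those measured, against 2.57% of all genes called higher, and 1.02% of all genes were called lower. Among the rises, Srebf1, which encodes SREBP1, had 2.52, 2.40, 2.56 and 2.48 in nephrectomized rats and 2.16, 2.22, 2.16 and 2.25 in sham rats. The groups did not overlap, and it was 1.23-fold higher (1.12 to 1.35, adjusted p = 0.0334).

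Por, the reductase that passes electrons to Cyp51 and Sqle among many other enzymes, went against its partners. It had 2.81, 2.93, 2.99 and 2.72 in nephrectomized rats, against 3.29, 3.38, 3.28 and 3.13 in sham rats, and was lower (0.754-fold, 95% interval 0.662 to 0.858, adjusted p = 0.033). Every nephrectomized rat lay below every sham rat.

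Of 25 other genes of lipogenesis, 21 were measured, 2 rose and none fell, with a median log2 fold change of 0.05. Agpat2, an acyltransferase on the way to phospholipids and triglycerides, was 1.31-fold higher (adjusted p = 0.0474), and Fabp3, a fatty acid carrier, 1.24-fold (adjusted p = 0.0305). The share called higher, 9.52%, stood beside 2.57% of all genes and 37.5% of the sterol members. Without nephrectomized rat 1, 2 or 4 or sham rat 2, 3 or 4, between 1 and 3 genes of both lists together passed instead of 6. Over all genes, between 341 and 581 passed in these omissions instead of 714.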

How the data were processed

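The authors deposited 1-colour Agilent Feature Extraction 10.5.1.1 files (protocol GE1_105_Dec08, array design 014879, per the file headers) giving a linear intensity per spot. Per the file headers, the extraction computed a background-subtracted signal and fitted a spatial and a multiplicative trend on each array; the settings that led to the processed signal are not given in the sources used here. A second deposited table holds log2 values of 30448 probes and matched (r = 0.999977 across probes and arrays) the values computed here after centring each probe on its median. It served as an alternative.

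The log2 processed intensity was averaged over a probe's spots, outlier spots left out, and the array's 75th percentile was subtracted. A probe stayed in if every array of 1 group or of both called it well above background (23982 of 41012 did). Their RefSeq accessions were matched to GRCr8 symbols (18713 probes), the brightest probe stood for a gene, and the 19865 genes were tested with limma 3.58.1 in R 4.3.3 (two-sided, Benjamini-Hochberg), after a test on simulated data. Probes of close paralogs (Scd and Scd2, Insig1 and Insig2) can hybridise to each other's mRNA. No coordinates of probes are given because the array's annotation is of another build (rn4).

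The members and lists were chosen with earlier results of these data known. All members are named, and of the other lists the genes that passed, at most 6 per list and direction, except that some are not reported here. The labels number the replicates of each group but do not describe the rats further. The p-values therefore set the difference between groups against the spread between these samples only. Alternatives were other normalizations and background corrections, the deposited table, filters, the mean of a gene's probes, each probe on its own, trend with robust estimation, array weights, an adjusted p of 0.01, blocks by replicate number or slide, each slide alone and each rat left out. Normexp used the median spot intensity and the local background.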

Additional observations from a re-analysis of the deposited data

Results flagged for a closer look

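In 3 of 64 sets of 4 values (32 tested members in 2 groups), 1 rat stood far from the other 3 of its group by Dixon's test, which marks about 1 in 20 sets by chance. Mvk was low in nephrectomized rat 2 (-0.45, against -0.29 to -0.27 in the others of the group). Mvd was high in sham rat 1 (1.84, against 1.52 to 1.56), which narrows the gap of this called gene to the nephrectomized rats. Insig2 was low in sham rat 1 (-0.012, against 0.17 to 0.21).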

How the results depend on the processing

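The deposited table, quantile normalization, centring on the median of the detected probes, the mean of a gene's probes and a filter on all 8 arrays changed no member's call, and the median over all genes moved by no more than 0.03 in any setting. With normexp, Nsdhl and Ggps1 lost their calls and Fdps and Stard4 gained theirs. The sterol median was 0.31 within slide 1. Array weights turned the sign of Acly (-0.0035), which no setting called.

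Counts of calls moved more. The order is all genes (either direction), members higher, sterol genes higher, fatty acid genes higher and other pathway genes (either direction). In that order limma gave 714, 10, 9, 1 and 6 in the design used and 282, 2, 2, 0 and 1 with dim probes kept. It gave 2520, 18, 16, 2 and 11 with array weights, and 260, 3, 3, 0 and 1 at an adjusted p of 0.01. Within slide 1 the counts were 0, 0, 0, 0 and 0 (before adjustment 1632, 14, 12, 2 and 4 had p under 0.05). Slide 2 alone gave 141, 0, 0, 0 and 1 (before adjustment 2464, 19, 16, 3 and 10). The fatty acid count was 2 with trend and robust estimation and 2 with slide as a block. Leaving out 1 rat gave 341 to 720 genes, 3 to 10 members, 3 to 9 sterol genes, 0 to 1 fatty acid genes and 1 to 6 other pathway genes. The cause of these moves was not tested. Leaving out a rat did not always lower a count: without sham rat 1, 720 genes passed, against 714 with all rats. Without the filter, the adjustment ran over 35237 genes instead of 19865.

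With the replicate number as a block the counts were 296, 2, 2, 0 and 2, and Idi1 and Cyp51 kept their calls. Rats of the same number shared little (correlations of -0.0176 to 0.103 between their deviations from the group means, across genes), so the numbers were not taken as pairs. Single-probe values near background, such as Acaca, are limited by signal, and 2 members could not be tested for that reason.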
